A study of Mus musculus with 15 samples.

Results

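The mouse Cyp3a genes encode cytochrome P450 enzymes of the liver, and Nr1i2 encodes the pregnane X receptor, PXR, which controls several of them. All rows of the deposited liver table carrying the names Cyp3a11, Cyp3a13, Cyp3a16, Cyp3a25, Cyp3a41a, Cyp3a41b, Cyp3a44, Cyp3a59 or Nr1i2 were taken, which gave 9 of 54532 genes. The values are fragments scaled by gene length and library depth (FPKM) from bulk RNA sequencing of whole liver at postnatal day 12, in 15 libraries. The study set strains resistant and susceptible to oxygen-induced retinopathy, a model of vessel loss in the young retina, side by side and asked which metabolic differences might protect. C57 normoxia (n = 4) and BALBc normoxia (n = 3) stayed in room air to day 12. C57 hyperoxia (n = 4) and BALBc hyperoxia (n = 4) were moved to 75% oxygen on day 7. Which strain is the resistant one, the substrains and any pooling of animals are not given in the sources used here. The labels do not say that replicates were separate animals, so p-values measure the spread between these libraries, which may be technical.

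Cyp3a enzymes sit in the endoplasmic reticulum of hepatocytes, where they oxidise steroids, bile acids and many drugs with electrons from the reductase Por. PXR is a nuclear receptor that binds such compounds, pairs with the retinoid X receptor and switches on Cyp3a11 and other detoxification genes. The family changes with age and sex in mouse liver. Cyp3a16 is known as a fetal and neonatal form, Cyp3a11 and Cyp3a25 as adult forms, and Cyp3a41 and Cyp3a44 as forms that predominate in adult females.

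The depth read back from the FPKM steps was 1.49e+07 to 1.91e+07 fragments per library. By the number of genes at the lowest step, 2 library classes appeared, which were defined from the data. In 7 libraries 29.9% to 33.7% of the genes seen at 1 to 10 fragments sat at exactly 1 fragment, against 10.3% to 18.4% in the other 8. All 4 C57 hyperoxia libraries belonged to the first class, with C57 normoxia 4, BALBc normoxia 1 and BALBc hyperoxia 1. Each group held libraries with and without Xist, the transcript of the inactive X chromosome, above 1 FPKM. Those with it were 2 in C57 normoxia, 1 in C57 hyperoxia, 2 in BALBc normoxia and 2 in BALBc hyperoxia. BALBc normoxia 2 was the only library of its group without it. BALBc normoxia 1 and BALBc hyperoxia 4 had Xist at 55.9 and 66.2 FPKM together with the Y-linked Ddx3y at 0.764 and 0.958 FPKM. Ddx3y was 12.0 to 18.8 FPKM in the 8 libraries without Xist, and at most 0.0120 FPKM in the other 5 with it. The liver label held up, with Alb, the albumin gene, at 41957 to 59128 FPKM. Of the markers of small intestine, the other main site of Cyp3a expression, Sis was at 0 in every library. Vil1, Lct and Alpi reached at most 0.559, 0.135 and 0.186 FPKM. Fabp2, the only marker of that list to pass the filter on low values, was at 56.7 to 92.1 FPKM.

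The 8 Cyp3a members lie on chromosome 5 of GRCm38. Cyp3a13 (ENSMUSG00000029727, 137892932 to 137921619, minus strand) stands apart, and the other 7 lie between 145436309, the end of Cyp3a16, and 146113287, the end of Cyp3a59. Nr1i2 (ENSMUSG00000022809) lies on chromosome 16, 38248323 to 38294824, minus strand. The promoters of 6 genes are shown because these genes, among them 2 pairs of near copies, differed between strains in size or direction of change. The sequences are RefSeq promoters of GRCm38.p6, from 250 bases before to 50 bases after the annotated start, read 5′ to 3′ on each gene's strand. They are Cyp3a11 at chr5:145879805-145880104 (minus), Cyp3a16 at chr5:145469674-145469973 (minus), Cyp3a44 at chr5:145805825-145806124 (minus), Cyp3a25 at chr5:146009569-146009868 (minus), Cyp3a59 at chr5:146079008-146079307 (plus) and Cyp3a13 at chr5:137921570-137921869 (minus). Capitals mark AGGTCA, the core of many nuclear receptor sites, on either strand (TGACCT when read from the other strand), and CAAAGTCCA, a sequence of the kind bound by the hepatocyte factor HNF4.
Cyp3a11: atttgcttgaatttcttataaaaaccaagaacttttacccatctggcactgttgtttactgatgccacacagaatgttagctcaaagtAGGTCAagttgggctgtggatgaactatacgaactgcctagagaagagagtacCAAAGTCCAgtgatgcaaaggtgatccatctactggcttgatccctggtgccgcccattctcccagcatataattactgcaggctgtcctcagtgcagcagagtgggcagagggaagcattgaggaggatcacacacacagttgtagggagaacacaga
Cyp3a16: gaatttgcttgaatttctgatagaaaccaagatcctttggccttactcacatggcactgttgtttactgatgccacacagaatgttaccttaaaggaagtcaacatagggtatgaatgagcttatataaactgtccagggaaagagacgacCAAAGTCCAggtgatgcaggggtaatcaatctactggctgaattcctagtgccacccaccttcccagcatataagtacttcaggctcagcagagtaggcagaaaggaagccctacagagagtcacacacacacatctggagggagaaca
Cyp3a44: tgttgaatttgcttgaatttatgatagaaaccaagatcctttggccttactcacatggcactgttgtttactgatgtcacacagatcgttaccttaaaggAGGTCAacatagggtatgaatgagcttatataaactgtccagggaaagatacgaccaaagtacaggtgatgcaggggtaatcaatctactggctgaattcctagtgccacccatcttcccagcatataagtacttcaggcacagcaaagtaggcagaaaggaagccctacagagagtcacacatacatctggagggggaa
Cyp3a25: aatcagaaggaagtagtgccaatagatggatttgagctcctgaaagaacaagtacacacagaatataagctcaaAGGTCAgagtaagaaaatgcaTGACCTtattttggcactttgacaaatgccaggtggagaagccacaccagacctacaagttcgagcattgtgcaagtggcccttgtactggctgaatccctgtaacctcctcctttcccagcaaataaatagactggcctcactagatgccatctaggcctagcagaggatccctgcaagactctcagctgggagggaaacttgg
Cyp3a59: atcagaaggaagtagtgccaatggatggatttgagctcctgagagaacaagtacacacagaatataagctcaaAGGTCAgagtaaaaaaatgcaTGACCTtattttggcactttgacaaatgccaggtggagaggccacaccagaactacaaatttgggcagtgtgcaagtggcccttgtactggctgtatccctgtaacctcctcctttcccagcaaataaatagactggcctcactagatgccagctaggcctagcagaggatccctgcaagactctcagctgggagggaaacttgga
Cyp3a13: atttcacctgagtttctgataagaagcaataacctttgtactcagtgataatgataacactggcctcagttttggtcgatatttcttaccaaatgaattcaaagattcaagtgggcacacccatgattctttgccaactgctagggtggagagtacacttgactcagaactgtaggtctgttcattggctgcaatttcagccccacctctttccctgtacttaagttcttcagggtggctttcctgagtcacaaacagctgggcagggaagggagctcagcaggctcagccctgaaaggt

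The promoters of Cyp3a16 and Cyp3a44 were 95.9% identical over 296 aligned bases, and those of Cyp3a25 and Cyp3a59 were 96.3% identical over 299. Cyp3a11 was 82.2% identical to Cyp3a16 over 286 bases. AGGTCA, searched on both strands, was present in 4 of the 8 Cyp3a promoters and in 16.3% of all 32851 promoters of the same length. It was present once in Cyp3a11 and Cyp3a44 and on both strands in Cyp3a25 and Cyp3a59. CAAAGTCCA was present in Cyp3a11, Cyp3a16, Cyp3a41a and Cyp3a41b and in 0.475% of all promoters. The 2 motifs do not overlap each other in these windows, and both were chosen after the sequences were seen. The RefSeq start of Cyp3a11 lies 110 bases inside the GENCODE start, so its window is set by the RefSeq one.

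Cyp3a11 and Cyp3a25, the adult forms, had the highest group means of the family in FPKM, though Cyp3a16 was above Cyp3a25 in C57 hyperoxia 2 and BALBc normoxia 1. Cyp3a11 (ENSMUSG00000056035, chromosome 5, 145854426 to 145879964) was 232, 229, 222 and 277 FPKM in C57 normoxia and 275, 302, 198 and 269 in C57 hyperoxia. In BALBc it was 410.2, 345 and 418 FPKM in normoxia and 332, 305, 268 and 335 in hyperoxia. In bulk liver, fewer cells of a type and less RNA per cell cannot be told apart. All BALBc normoxia libraries lay above all C57 normoxia libraries, while the hyperoxia groups of the strains overlapped. On the log2(FPKM + 1) scale used for every change, which understates the changes of weak genes, Cyp3a11 was higher in BALBc normoxia by 0.70 ± 0.13 (SE, limma adjusted p = 0.000965). In hyperoxia the strain difference of 0.26 ± 0.12 did not pass (adjusted p = 0.146), with a 95% interval of -0.00073 to 0.52. It did pass with quantile scaling, at 0.43 (adjusted p = 0.0057), and ran from 0.13 to 0.34 on leaving out 1 library. The mean level ran from BALBc normoxia (391 FPKM) through BALBc hyperoxia (309.9) and C57 hyperoxia (261) to C57 normoxia (240.1), and only the step between the BALBc groups was free of overlap. The gene model of Cyp3a11 covers 5093 exon bases, including a transcript outside its 13-exon coding form of 2344 bases. Per length of that coding form its level was 483 to 602 in C57 normoxia and 750 to 907 in BALBc normoxia. The gene models of the other 7 Cyp3a members cover 1730 to 2956 bases, so FPKM per gene model sets Cyp3a11 low beside them.

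Cyp3a25 (ENSMUSG00000029630, 145977194 to 146009618), which is expressed in liver and intestine, was 142, 162, 127 and 135 FPKM in C57 normoxia and 157, 145, 116 and 126 in C57 hyperoxia. Its levels in BALBc were 298, 269 and 299.9 FPKM in normoxia and 260.2, 233, 208 and 256 in hyperoxia. Every BALBc library was above every C57 library in either oxygen condition. The strain differences were 1.03 ± 0.11 in normoxia (limma adjusted p = 8.17e-06) and 0.81 ± 0.10 in hyperoxia (adjusted p = 4.61e-05). The C57 groups overlapped, and every BALBc hyperoxia library lay below every BALBc normoxia library.

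Cyp3a59 (ENSMUSG00000061292, 146079257 to 146113287, plus strand) has a transcript 97.0% identical to that of Cyp3a25 over 1990 aligned bases. It did not share the rise of Cyp3a25. Its levels were 32.1, 24.4, 35.8 and 31.8 FPKM in C57 normoxia and 38.6, 38.5, 28.1 and 34.6 in C57 hyperoxia. BALBc had 30.1, 17.8 and 27.2 FPKM in normoxia and 24.9, 21.3, 14.95 and 25.03 in hyperoxia. The strains overlapped in normoxia, where the difference of -0.32 ± 0.20 did not pass (limma adjusted p = 0.252, 95% interval -0.74 to 0.11). In hyperoxia every BALBc library was below every C57 library and Cyp3a59 was lower by -0.69 ± 0.18 (adjusted p = 0.0134). Among windows of 100 bases, 5.61% of those of the Cyp3a59 transcript and 6.05% of those of Cyp3a25 occurred in another gene's transcript. The hyperoxia C57 libraries all belonged to the 7 with many genes at 1 fragment. With a term for library class the difference was -0.49 (adjusted p = 0.157), and within those 7, with 1 BALBc hyperoxia library, it was -0.46.

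Cyp3a13, a form of liver and intestine with a broad set of substrates, was lower in BALBc in both oxygen conditions, as Cyp3a59 was in hyperoxia. It was 31.6, 26.3, 30.8 and 39.4 FPKM in C57 normoxia and 30.9, 28.2, 27.5 and 32.5 in C57 hyperoxia. BALBc had 5.90, 6.45 and 6.50 FPKM in normoxia and 4.27, 4.49, 3.94 and 4.30 in hyperoxia. No BALBc library came near the C57 range. The differences of -2.17 ± 0.11 in normoxia (limma adjusted p = 1.87e-09) and -2.55 ± 0.10 in hyperoxia (adjusted p = 1.24e-10) correspond to FPKM + 1 lower by 4.49 and 5.85 times. None of the 100-base windows of its transcript occurred in another gene, and its identity to the other Cyp3a transcripts was 72.3% to 75.3%. GRCm38 is the C57BL/6J genome, and the effect on these levels of aligning BALBc reads to it was not tested. The same holds for every other member, among them Cyp3a25 and Cyp3a59, Cyp3a44, Cyp3a41a and Cyp3a41b. The shares of 100-base windows also come from that genome and do not cover BALBc sequence.

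**Figure D1:**
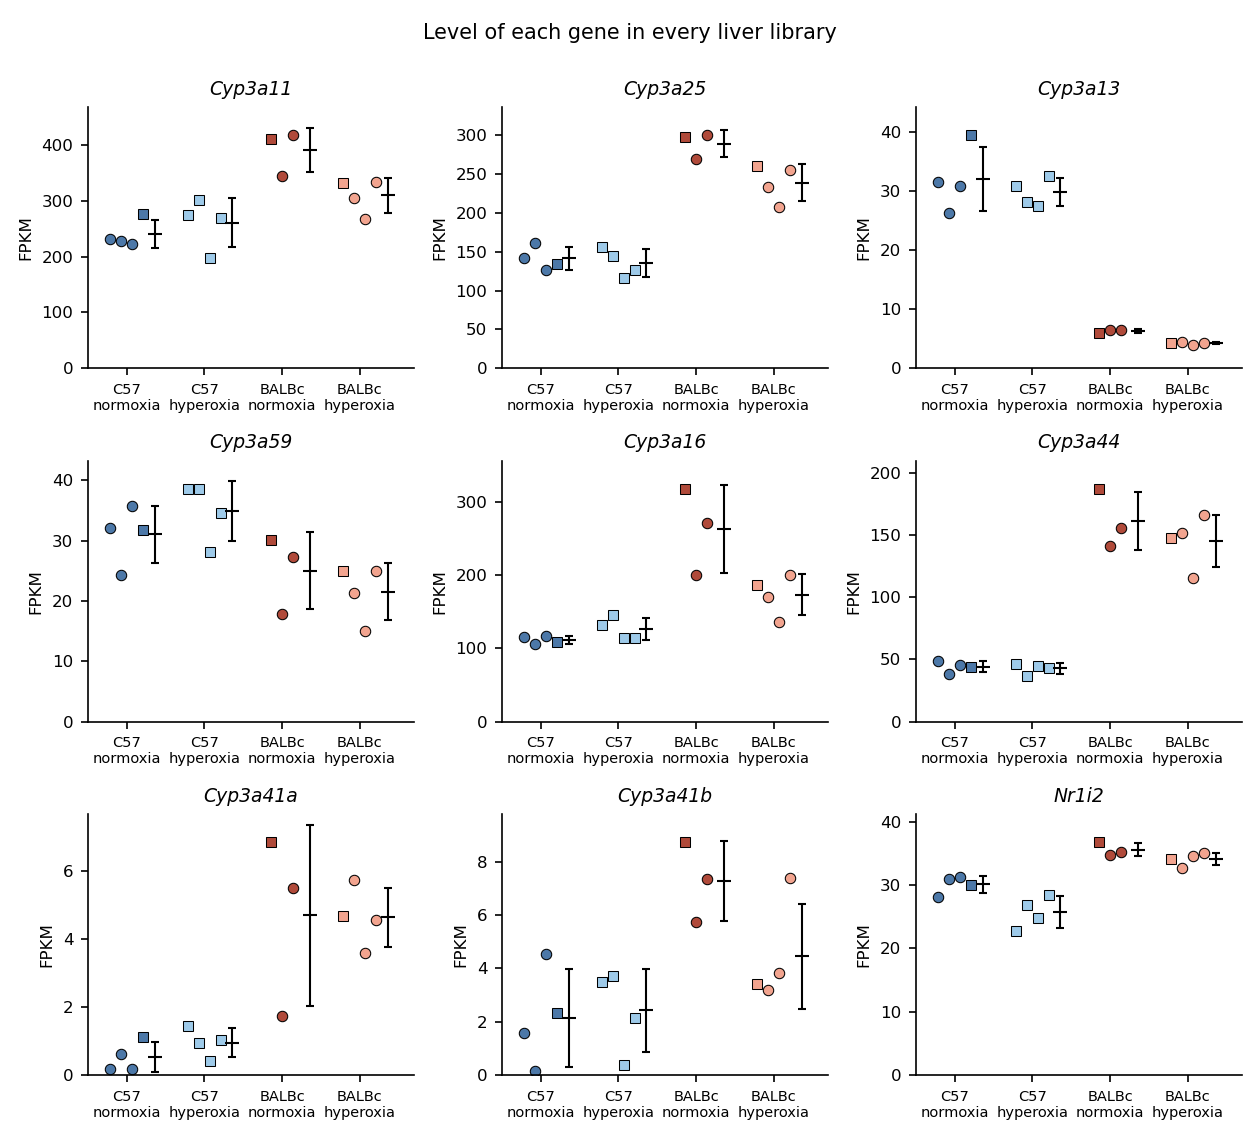
FPKM of the 9 genes in each library by group, on axes that start at 0; squares are the 7 libraries with many genes at 1 fragment, circles the other 8, and bars show mean ± SD. Cyp3a13 is the gene whose BALBc libraries, at 3.94 to 6.50 FPKM, all sit far under the C57 libraries, at 26.3 to 39.4.

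Cyp3a16, the neonatal form, was still among the strongest members at day 12. Cyp3a16 (ENSMUSG00000038656, 145436309 to 145469723) was 116, 105, 117 and 108 FPKM in C57 normoxia and 133, 145, 115 and 114 in C57 hyperoxia. BALBc libraries had 318, 199.6 and 271 FPKM in normoxia and 187, 169.8, 136 and 200.5 in hyperoxia. All BALBc normoxia libraries stood above the C57 range, BALBc normoxia 2 was the lowest of them, and the strains overlapped in hyperoxia. The strain difference was 1.20 ± 0.15 in normoxia (limma adjusted p = 2.87e-05) and 0.44 ± 0.14 in hyperoxia (adjusted p = 0.0321). The hyperoxia call was lost on leaving out C57 hyperoxia 1, 3 or 4 (adjusted p = 0.05004, 0.0888 and 0.0906) or BALBc hyperoxia 1, 2 or 4 (adjusted p = 0.0816, 0.0599 and 0.0992). Within the 7 libraries with many genes at 1 fragment, where BALBc hyperoxia had 1 library, the difference was 0.56.

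In normoxia the female-predominant forms had the 3 largest rises of the family in BALBc. Cyp3a44 (ENSMUSG00000054417, 145773983 to 145805874) was 48.7, 38.5, 45.3 and 44.1 FPKM in C57 normoxia and 46.6, 36.8, 44.8 and 42.8 in C57 hyperoxia. Its levels in BALBc were 187, 141 and 156 FPKM in normoxia and 147, 152, 116 and 166 in hyperoxia. The lowest BALBc library was above the highest C57 library, and oxygen groups overlapped within each strain. Cyp3a44 was higher by 1.84 ± 0.13 in normoxia (limma adjusted p = 7.79e-08) and by 1.73 ± 0.12 in hyperoxia (adjusted p = 5.97e-08). In BALBc its 4 libraries with Xist were at 152 to 187 FPKM and the 3 without at 116 to 147, whereas in C57 the ranges were 38.5 to 46.6 and 36.8 to 48.7. In a fit with Xist as a covariate the strain differences were 1.81 in normoxia and 1.70 in hyperoxia (adjusted p = 1.65e-07 and 1.85e-07).

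Cyp3a41a (ENSMUSG00000075551, 145694049 to 145720136) and Cyp3a41b (ENSMUSG00000075552, 145558664 to 145584730) were the weakest members and cannot be told apart by most reads. Their transcripts were 99.9% identical over 2060 bases, and 90.8% and 88.2% of their 100-base windows occurred in another gene, so how the authors' counting divided shared fragments between them is uncertain. Cyp3a41a was 0.181, 0.630, 0.181 and 1.11 FPKM in C57 normoxia and 1.43, 0.931, 0.423 and 1.02 in C57 hyperoxia. In BALBc it was 6.85, 1.73 and 5.50 FPKM in normoxia and 4.66, 5.72, 3.60 and 4.55 in hyperoxia. All BALBc libraries were above the C57 libraries of the same oxygen group. In BALBc the 4 libraries with Xist were at 4.55 to 6.85 FPKM and the 3 without at 1.73 to 4.66. In C57 those ranges were 0.181 to 1.43 and 0.181 to 1.11. The differences were 1.81 ± 0.31 in normoxia (limma adjusted p = 0.00049) and 1.54 in hyperoxia (adjusted p = 0.00127).

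Cyp3a41b was 1.57, 0.150, 4.53 and 2.32 FPKM in C57 normoxia and 3.47, 3.72, 0.357 and 2.13 in C57 hyperoxia. BALBc had 8.73, 5.72 and 7.37 FPKM in normoxia and 3.42, 3.17, 3.82 and 7.39 in hyperoxia. The strains did not overlap in normoxia and did in hyperoxia. BALBc libraries with Xist, at 3.17 to 8.73 FPKM, overlapped those without, at 3.42 to 5.72. The rise of Cyp3a41b of 1.59 ± 0.48 in normoxia passed (limma adjusted p = 0.0205) but not on leaving out BALBc normoxia 1 or 3 (adjusted p = 0.0670 and 0.0575). It was also lost with no filter (adjusted p = 0.1398), with the compared groups alone (0.0523) and within the 8 libraries with few genes at 1 fragment (0.0958). The hyperoxia difference of 0.76 ± 0.44 did not pass (adjusted p = 0.243, 95% interval -0.18 to 1.71). With the levels of Cyp3a41a and Cyp3a41b summed, the differences were 1.90 ± 0.42 (adjusted p = 0.0033) and 1.33 ± 0.39 (adjusted p = 0.0228). C57 fragments were as few as 6 for Cyp3a41a, in C57 normoxia 1 and 3, and as few as 5 for Cyp3a41b, in C57 normoxia 2.

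The transcribed pseudogene Cyp3a63-ps, which lies between Cyp3a41b and Cyp3a41a, had 13.3 to 27.0 FPKM in C57 and 8.26 to 26.1 in BALBc. Cyp3a57 stayed between 0.125 and 0.911 FPKM, and Cyp3a61-ps1 was listed at 0 in all 15 libraries.

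Nr1i2, the receptor gene, was higher in BALBc in both oxygen conditions. It was 28.2, 31.0, 31.2 and 30.1 FPKM in C57 normoxia and 22.8, 26.8, 24.9 and 28.5 in C57 hyperoxia. BALBc had 36.8, 34.8 and 35.3 FPKM in normoxia and 34.2, 32.8, 34.6 and 35.1 in hyperoxia. Every BALBc library lay above every C57 library, and the oxygen groups overlapped in both strains. Nr1i2 was higher in BALBc by 0.24 ± 0.07 in normoxia (limma adjusted p = 0.0262) and by 0.40 ± 0.07 in hyperoxia (adjusted p = 0.000665). The normoxia call was lost on leaving out C57 normoxia 1 (adjusted p = 0.0614) or BALBc normoxia 1, 2 or 3 (adjusted p = 0.0832, 0.0511 and 0.0590). It was also lost with the compared groups alone (adjusted p = 0.0678). Within library classes Nr1i2 was not called, with normoxia differences of 0.21 and 0.28 (adjusted p = 0.130 and 0.342) and a hyperoxia difference of 0.40 (adjusted p = 0.112). The group means ran from BALBc normoxia (35.6 FPKM) and BALBc hyperoxia (34.2), which overlapped, to C57 normoxia (30.1) and C57 hyperoxia (25.7), which also overlapped.

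Between strains in normoxia, 8 of the 9 members were called at an adjusted p under 0.05, against 30% of the 13026 genes tested. Of these, 7 were higher in BALBc, against 15.4% of all genes, and Cyp3a13 was lower, against 14.6%. The median change of the members was 1.03 and that of all genes 0.01. In hyperoxia 7 of 9 were called against 23.2% of all genes. There 5 were higher in BALBc, against 11.9%, and Cyp3a13 and Cyp3a59 were lower, against 11.3%. The members' median was 0.44 and that of all genes -0.0017. All 9 members passed the filter on low values, an FPKM of 1 or more in at least 3 libraries. Of the libraries with both Xist and Ddx3y, leaving out BALBc normoxia 1 left 6 of 9 called in normoxia, as did leaving out BALBc normoxia 3. Leaving out BALBc hyperoxia 4 left 6 of 9 in hyperoxia, as did leaving out C57 hyperoxia 1, 3 or 4 or BALBc hyperoxia 1 or 2. Within the 8 libraries with few genes at 1 fragment, 6 of 9 were called in normoxia. The other 7 libraries held 1 library a strain in normoxia and 4 against 1 in hyperoxia, so no count is given for them.

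**Figure D2:**
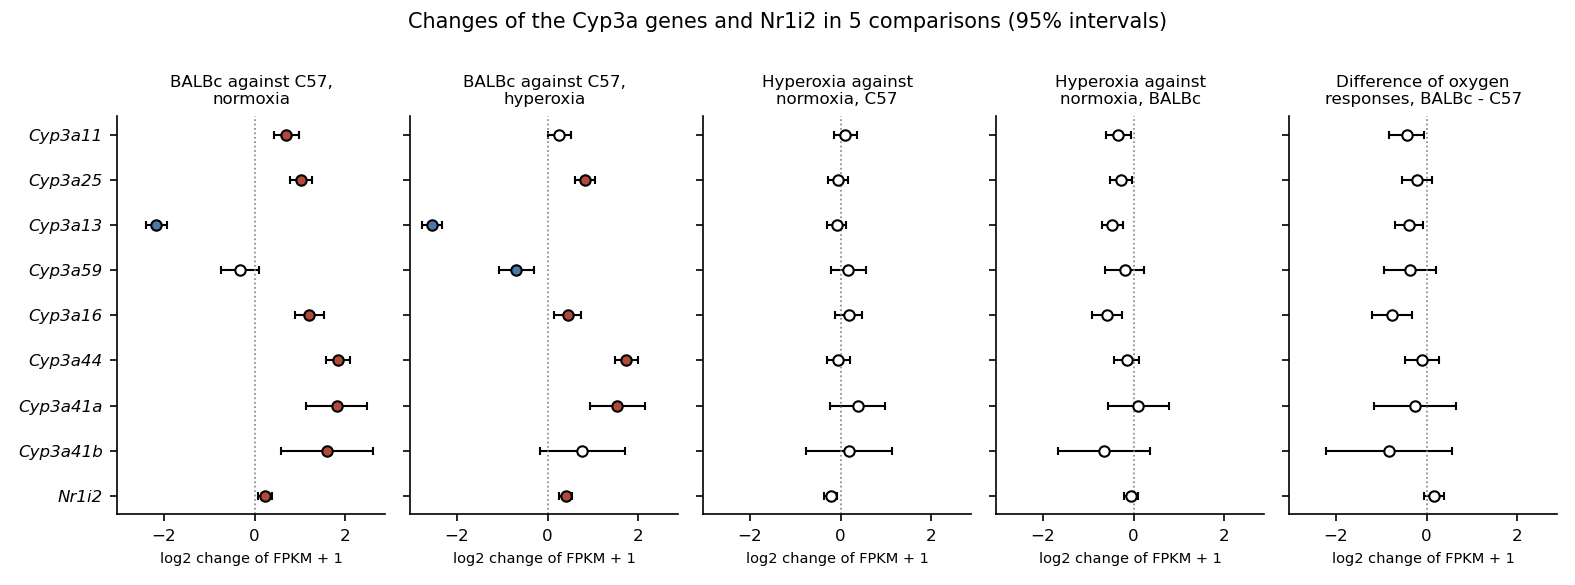
Change of each gene on the log2(FPKM + 1) scale in the 5 comparisons, with 95% intervals; filled points passed an adjusted p of 0.05 (red higher, blue lower) and open points did not. The filled points all lie in the strain comparisons, from -2.55 for Cyp3a13 to 1.84 for Cyp3a44.

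The comparison of hyperoxia with normoxia asked whether high oxygen changed these genes in either strain. In C57, 0 of 9 members were called by limma against 0.937% of all genes, and 1 of 9 had an unadjusted p under 0.05, against 14.2% of all genes. That gene was Nr1i2, with a difference of -0.22 ± 0.07 (adjusted p = 0.151, 95% interval -0.37 to -0.08). Cyp3a11 differed by 0.11 (interval -0.15 to 0.37), Cyp3a25 by -0.06 (interval -0.28 to 0.16) and Cyp3a16 by 0.17 (interval -0.12 to 0.47). Only 1 C57 normoxia library shared the class of the 4 hyperoxia libraries, and oxygen and class could be compared within that class from 1 library against 4. There Nr1i2 differed by -0.22.

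In BALBc, 0 of 9 members were called against 0.944% of all genes, and 4 of 9 had an unadjusted p under 0.05, against 12.4% of all genes. Of the 9 estimates 8 were below 0, and the median was -0.28 against 0.00097 for all genes. The closest to the threshold was Cyp3a13, from 6.29 ± 0.331 FPKM (SD, n = 3) to 4.25 ± 0.228 (n = 4), with every hyperoxia library below every normoxia library. Its difference was -0.47 ± 0.11 (limma adjusted p = 0.0544), and on leaving out C57 normoxia 2 or 4 the adjusted p was 0.0224 or 0.0153. Those C57 libraries do not enter the difference itself, which stayed at -0.47. Over the 15 fits that left out 1 library the adjusted p of Cyp3a13 ran from 0.0153 to 0.212. Cyp3a16 went from 263 ± 59.6 to 173 ± 27.7 FPKM, with a difference of -0.59 ± 0.15 (adjusted p = 0.0881) and 1 hyperoxia library, at 200.5 FPKM, just above the lowest normoxia library, at 199.6. Leaving out that lowest library, BALBc normoxia 2, gave -0.77 (adjusted p = 0.0280). BALBc normoxia 2 was also the only library of its group without Xist above 1 FPKM. Over the 15 fits that left out 1 library the adjusted p of Cyp3a16 ran from 0.0280 to 0.291. Cyp3a11 differed by -0.34 ± 0.13 (adjusted p = 0.290) and Cyp3a25 by -0.28 ± 0.11 (adjusted p = 0.308), both without overlap between the groups. Cyp3a44 differed by -0.15, with an interval of -0.43 to 0.12. Nr1i2 differed by -0.06, with an interval of -0.22 to 0.10.

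The BALBc oxygen differences were also taken within each library class. In the class with few genes at 1 fragment, with 2 normoxia and 3 hyperoxia libraries, the differences were -0.33 for Cyp3a11, -0.30 for Cyp3a25, -0.48 for Cyp3a16 and -0.51 for Cyp3a13. Between the single libraries of the other class they were -0.30, -0.19, -0.77 and -0.39, values of 1 library against 1.

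The oxygen responses of the strains were compared by their difference, BALBc minus C57, where 0 of 9 members were called against 0.821% of all genes. At an unadjusted p under 0.05 there were 3 of 9, against 12.7% of all genes. Cyp3a16 had the lowest adjusted p, with -0.76 ± 0.20 (limma adjusted p = 0.104, 95% interval -1.20 to -0.33). Without BALBc normoxia 2, the only library of its group without Xist, the Cyp3a16 value was -0.95 (adjusted p = 0.0488). Over the 15 fits that left out 1 library its adjusted p ran from 0.0488 to 0.223. Cyp3a11 had -0.44 ± 0.18 (adjusted p = 0.306) and Cyp3a13 -0.38 ± 0.15 (adjusted p = 0.278).

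The summed Cyp3a level and the share of its members were set side by side by group. Summed over the 8 genes, the level was 603 ± 25.8 FPKM (SD, n = 4) in C57 normoxia, 634 ± 77.5 (n = 4) in C57 hyperoxia, 1147 ± 144 (n = 3) in BALBc normoxia and 902 ± 108 (n = 4) in BALBc hyperoxia. The lowest BALBc library, at 754 FPKM, was above the highest C57 library, at 700.1. Cyp3a44 made up 7.33 ± 0.703% of the sum in C57 normoxia, 6.85 ± 1.31% in C57 hyperoxia, 14.05 ± 0.886% in BALBc normoxia and 16.1 ± 0.858% in BALBc hyperoxia. Cyp3a13 made up 5.29 ± 0.689% and 4.74 ± 0.580% of it in C57, and 0.556 ± 0.0940% and 0.475 ± 0.0449% in BALBc. These shares are per gene model. With each of the 8 genes taken per length of its coding transcript, Cyp3a11 alone held 58.5% of the sum in C57 normoxia and 52.6% in BALBc normoxia.

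**Figure D3:**
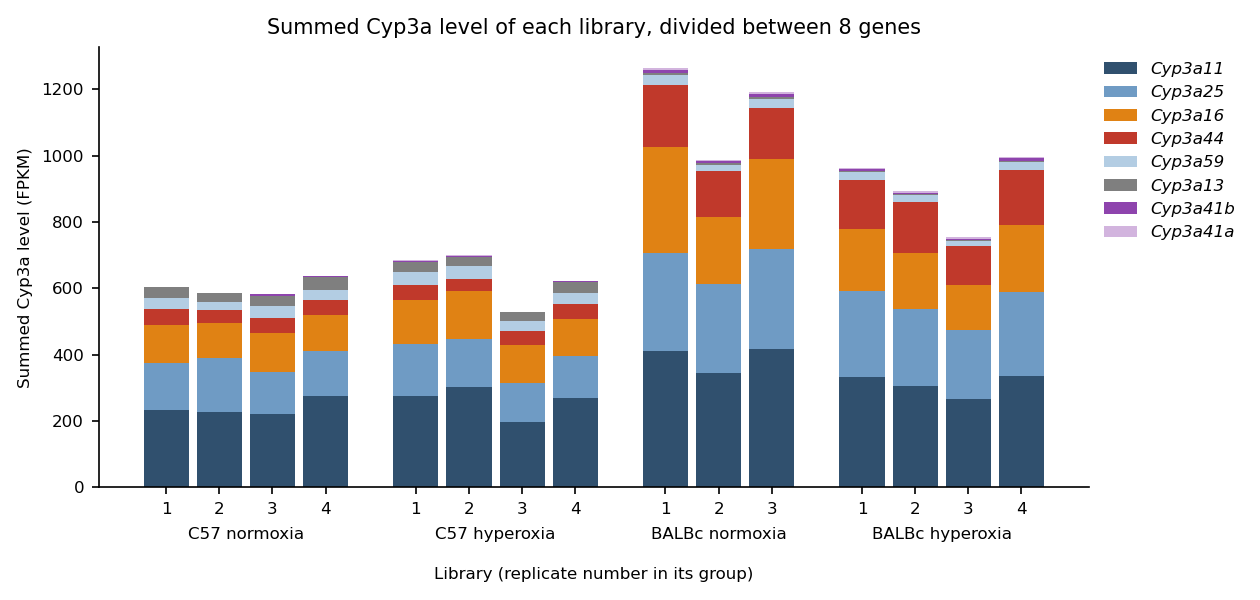
Summed FPKM of the 8 Cyp3a genes in each library, with 1 bar per library and 1 colour per gene. BALBc bars reach 754 to 1265 FPKM and C57 bars 529 to 700.1, and the band of Cyp3a44 is wider in every BALBc library.

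The neonatal form was also set against the main adult form. For each 100 FPKM of Cyp3a11 there were 46.9 ± 5.81 of Cyp3a16 in C57 normoxia, 49.2 ± 6.40 in C57 hyperoxia, 66.7 ± 9.98 in BALBc normoxia and 55.6 ± 3.72 in BALBc hyperoxia. The normoxia strains did not overlap (39.1 to 52.5 against 57.8 to 77.5), while the hyperoxia strains did (42.5 to 57.9 against 50.8 to 59.9). For the near-identical pair, each 100 FPKM of Cyp3a25 came with 22.4 ± 5.45 of Cyp3a59 in C57 normoxia and 25.7 ± 1.55 in C57 hyperoxia. In BALBc that ratio was 8.60 ± 1.80 and 8.93 ± 1.18, and the highest BALBc library, at 10.1, lay below the lowest C57 library, at 15.1. These ratios are descriptions and carry no test. They are per gene model, which sets Cyp3a11 low and so its ratio to Cyp3a16 high. Per length of the coding transcript, Cyp3a16 held 12.6% of the sum in C57 normoxia, where Cyp3a11 held 58.5%. In BALBc normoxia these shares were 16.1% and 52.6%.

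**Figure D4:**
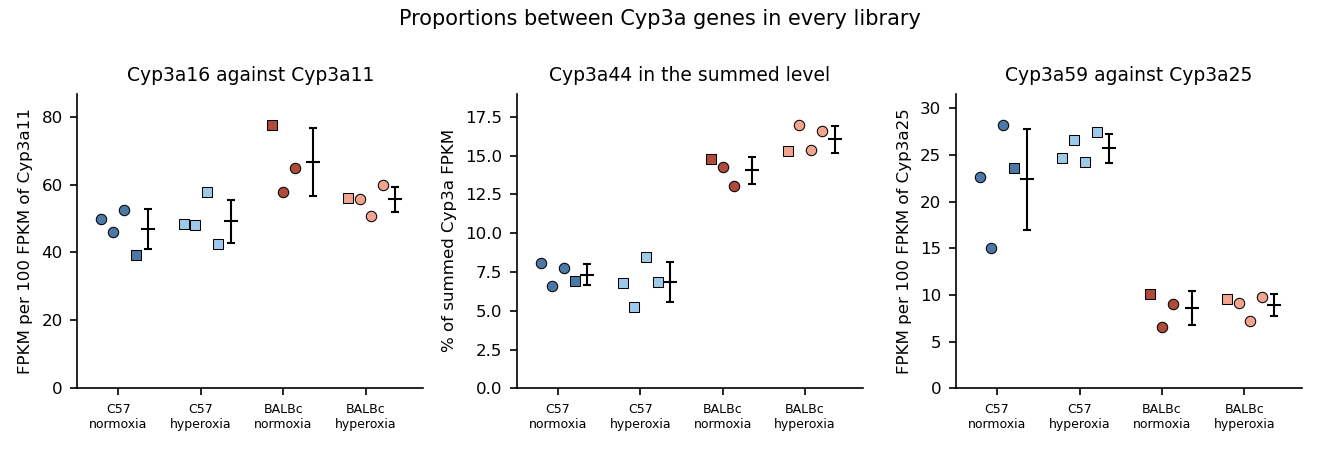
Level of Cyp3a16 per 100 FPKM of Cyp3a11, share of Cyp3a44 in the summed Cyp3a FPKM, and level of Cyp3a59 per 100 FPKM of Cyp3a25, in each library; squares are the 7 libraries with many genes at 1 fragment and bars show mean ± SD. The right panel shows all BALBc libraries at 6.61 to 10.1 and all C57 libraries at 15.1 to 28.2. FPKM are per gene model, which sets Cyp3a11 low beside Cyp3a16.

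Across the 15 libraries the log2 levels of Cyp3a11 and Cyp3a16 had a Pearson r of 0.92, and those of Cyp3a25 and Cyp3a44 of 0.95. Cyp3a13 ran against Cyp3a44, with r = -0.96. The libraries share strain, so these values describe the strain contrast and carry no p. By the same measure the 4 protein-coding genes most like Cyp3a11 were Tdo2 (0.92), Dpyd (0.92), Akr1d1 (0.91) and Fam25c (0.91). Those most like Cyp3a16 were Mipep (0.94), Nat8f7 (0.94), A2m (0.94) and Ctnnbl1 (0.93), and those most like Nr1i2 were Uck1 (0.93), Grpel1 (0.92), Cmbl (0.91) and Inmt (0.91).

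The RNA levels of the genes whose proteins PXR works with differed between strains in a narrower range. Of 10 partners and cofactors, 4 were called higher in BALBc and 0 lower in each oxygen condition. Over all genes 30% were called in normoxia, 15.4% of them as higher, and 23.2% in hyperoxia, 11.9% as higher, in percent of the genes tested. The list had medians of 0.28 in normoxia and 0.25 in hyperoxia against 0.01 and -0.0017 over all genes. Rxra, the retinoid X receptor that pairs with PXR, had mean levels of 56.8 FPKM in C57 normoxia and 85.8 in BALBc normoxia, a rise of 0.59 ± 0.08 (limma adjusted p = 5.29e-05). Nr0b2, a corepressor of nuclear receptors, averaged 32.4 FPKM in C57 normoxia and 59.7 in BALBc normoxia and was higher by 0.84 ± 0.17 there (adjusted p = 0.00211). In normoxia 3 of the 4 calls held in all 15 fits that left out 1 library, with Ncoa1, a coactivator, the exception (highest adjusted p = 0.161). In hyperoxia 3 of 4 held, with Nr1i3, the related receptor CAR, the exception (highest adjusted p = 0.137). The hyperoxia call of Rxra (0.29) was lost with a term for library class (0.20, adjusted p = 0.116).

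Against 30% of all genes called in normoxia and 23.2% in hyperoxia, 1 of the 5 genes of electron donors to P450 enzymes was called between strains. This was Por, the reductase that feeds all microsomal P450 enzymes, which had 109 and 98.0 FPKM in C57 normoxia and hyperoxia and 63.8 and 70.8 in BALBc. It was lower in BALBc by -0.77 ± 0.10 in normoxia (limma adjusted p = 3.02e-05) and by -0.47 ± 0.09 in hyperoxia (adjusted p = 0.00138). The other 4 were not called in either condition, and the list's median was -0.0043 in normoxia and -0.03 in hyperoxia.

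Other genes known as PXR targets changed in both directions. Of 13 listed, 12 were tested, and between strains in normoxia 5 were higher in BALBc and 4 lower, with a median of -0.16. In hyperoxia 5 were higher and 5 lower, with a median of -0.07. Over all genes 15.4% were called higher and 14.6% lower in normoxia, and 11.9% and 11.3% in hyperoxia. Cyp2b10, a P450 induced mainly through CAR, averaged 0.809 FPKM in C57 normoxia and 32.8 in BALBc normoxia, a difference of 4.36 ± 0.31 (limma adjusted p = 1.1e-07). Alas1, which encodes the rate-limiting enzyme of haem synthesis, averaged 24.2 and 74.6 FPKM and differed by 1.58 ± 0.19 (adjusted p = 2.41e-05). The retinaldehyde dehydrogenase gene Aldh1a1 was higher by 1.75, the transporter gene Abcc3 by 0.64 and Ugt1a1, which conjugates bilirubin, by 0.59. Among those lower in BALBc, Akr1b7, an aldo-keto reductase gene, differed by -3.92 ± 0.18 (adjusted p = 6.66e-10) and the carboxylesterase gene Ces2a by -0.81 ± 0.10 (adjusted p = 3.44e-05). In normoxia 7 of the 9 calls held in all 15 fits that left out 1 library, and the exceptions were the transporter genes Abcc2 and Slco1a4. All 10 held in hyperoxia. Akr1b7 was the only gene of the 6 lists called for oxygen within a strain, from 33.0 to 14.8 FPKM in C57 (-1.14 ± 0.17, adjusted p = 0.00522; 0.0564 with a term for library class, 0.0633 with the compared groups alone).

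**Figure D5:**
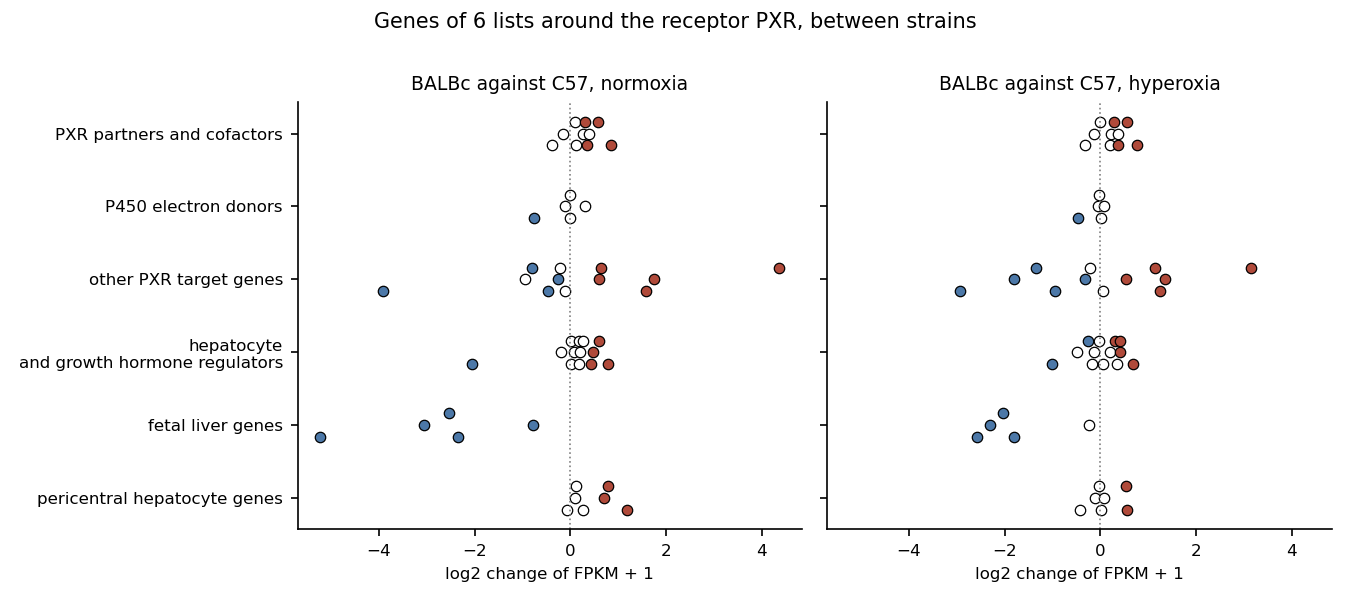
Change between strains on the log2(FPKM + 1) scale for each gene of 6 lists, in normoxia on the left and hyperoxia on the right; filled points passed an adjusted p of 0.05 (red higher in BALBc, blue lower) and open points did not. PXR targets spread to both sides of 0, from -3.92 for Akr1b7 to 4.36 for Cyp2b10 in normoxia.

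Among 13 hepatocyte and growth hormone regulators, 4 were higher and 1 lower in BALBc normoxia, and 4 higher and 2 lower in hyperoxia, against 30% and 23.2% of all genes called. Cux2, a repressor that predominates in adult female liver, averaged 7.76 FPKM in C57 normoxia and 1.20 in BALBc normoxia, a difference of -2.06 ± 0.26 (limma adjusted p = 3.26e-05). Ghr, the growth hormone receptor gene, was higher by 0.78 ± 0.11 (adjusted p = 0.000108). Of the 6 hyperoxia calls, 2 held in all 15 fits that left out 1 library, that of Cux2 among them. The Cux2 call in hyperoxia was lost with no filter (adjusted p = 0.0581) and with a term for library class (-0.89, adjusted p = 0.0674).

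The fetal liver genes were lower in BALBc while the neonatal Cyp3a16 was higher. All 5 fetal genes were called lower in normoxia and 4 of 5 in hyperoxia, against 14.6% and 11.3% of all genes. The medians of the list were -2.54 and -2.03. Afp, the alpha-fetoprotein gene, averaged 626 FPKM in C57 normoxia and 16.3 in BALBc normoxia, a difference of -5.22 ± 0.35 (limma adjusted p = 4.62e-08). H19, an imprinted RNA gene, averaged 5469 and 1097 FPKM and differed by -2.35 ± 0.17 (adjusted p = 8.74e-08). For the difference of the oxygen responses, BALBc minus C57, 1 of the 5 fetal genes was called, Afp, against 0.821% of all genes. That difference ran from 2.29 to 2.97 on leaving out 1 library, and its call was lost in 2 of 15 fits. Of 7 pericentral hepatocyte genes, 3 were called in normoxia and 2 in hyperoxia, all higher in BALBc. Over all genes 30% and 23.2% were called in either direction. Among the pericentral calls were Cyp2e1 (0.78 and 0.55) and Cyp1a2 (1.18 and 0.54). The Cyp1a2 call in hyperoxia was lost with no filter (limma adjusted p = 0.0626) and with a term for library class (0.32, adjusted p = 0.149).

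Markers of Kupffer cells also differed between strains. Of 6 Kupffer cell markers, 5 were called lower in BALBc normoxia and 6 in BALBc hyperoxia, against 14.6% and 11.3% of all genes. Their summed level was 404 to 664 FPKM in C57 normoxia, 253 to 334 in C57 hyperoxia, 123 to 132 in BALBc normoxia and 109 to 149 in BALBc hyperoxia. Within that sum Marco alone ranged from 6.11 to 316 FPKM over the libraries. For oxygen in C57, 1 of the 6 was called higher and 1 lower, against 0.937% of all genes called. Of 5 hepatocyte markers, 1 was called higher and 2 lower in BALBc normoxia, where 30% of all genes were called. In BALBc hyperoxia 0 were called higher and 1 lower, where 23.2% of all genes were called. The sum of the 5 was 65082 to 84978 FPKM in C57 normoxia and 70972 to 77348 in BALBc normoxia. In hyperoxia it was 71841 to 73500 in C57 and 66679 to 67992 in BALBc. No Kupffer cell or hepatocyte marker was at 0 in any library. Of 4 sinusoidal endothelial markers, 1 was called lower in BALBc normoxia and 0 were called in hyperoxia. Of 4 stellate cell markers, 1 was called higher in BALBc normoxia and 0 in hyperoxia. Of 3 cholangiocyte markers tested, 0 were called in normoxia and 1 was lower in BALBc hyperoxia. Of 5 erythroid markers, 1 was called higher in BALBc normoxia and 2 in BALBc hyperoxia. These counts stand against the same 30% and 23.2% of all genes. The part of cell makeup in the Cyp3a differences was not tested.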

How the data were processed

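Whole-liver RNA from 15 libraries was sequenced. The authors deposited FPKM for 54532 genes, made with HISAT2 2.0.5, featureCounts 1.5.0-p3 and GRCm38 per the submitters' processing notes. Strandedness and the treatment of reads with several matches are not given in the sources used here. Identifiers were matched to GENCODE M21 (54409 matched, 123 not). Fragments per gene were read back from the steps of the low FPKM values and used for depth, for the library classes and for the fragments behind weak genes. The filter on low values asked for 3 libraries or more at 1 FPKM or above and left 13026 genes. Values were fitted as log2(FPKM + 1), 1 mean per group over all 15 libraries, with limma 3.58.1 in R 4.3.3, moderated with a variance trend. P-values were adjusted by Benjamini-Hochberg over all genes tested in a comparison. The code was tested on simulated data. Descriptions used pandas 2.3.3, numpy 2.4.6 and scipy 1.17.1 under Python 3.11.15, and figures matplotlib 3.10.9. The groups came from the sample titles. Named were all members, other genes whose names start with Cyp3a, called genes of 6 pathway lists (1 of them is not reported here) and the 4 genes most like Cyp3a11, Cyp3a16 and Nr1i2. Members and lists were chosen with earlier results of these data known. Replicate numbers were checked for pairing: of 21 same-numbered pairs, 1 had a correlation of deviations over 0.1, and a library's best match carried its own number in 4 of 15 cases, so samples were treated as unpaired. Alternatives changed the pseudocount, filter, scaling, variance trend, samples fitted, covariates, library classes and each library in turn; the split by class was chosen after seeing the data. Within the 7 libraries with many genes at 1 fragment, only C57 hyperoxia held more than 1 library. The spread in those fits came from that group alone and measured none in BALBc or in normoxia. No column of per-sample values was left unused.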

Additional observations from a re-analysis of the deposited data

Results flagged for a closer look

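Cyp3a41b in BALBc hyperoxia 4 had 7.39 FPKM, far from the other 3 libraries of its group, which had 3.17 to 3.82 FPKM. The check for a library far from the rest of its group covered 27 pairs of member and group with 4 libraries, and chance alone singles out about 1 in 20. This library is also 1 of the 2 with both Xist and Ddx3y.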

How the results depend on the processing

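Members called in BALBc for oxygen rose from 0 to 1, Cyp3a13, with a pseudocount of 0.1 (adjusted p = 0.0377), a filter at FPKM 5 (0.0302), quantile scaling (0.0388), the replicate block (0.0381) or the compared groups alone (0.0401). Within the 7 libraries with many genes at 1 fragment, 5 members were called between strains in normoxia and 4 in hyperoxia. The replicate block left the other member counts at 0 for C57 oxygen, 0 for the difference of responses, 8 and 7. Leaving out 1 library gave 0 to 0 for C57 oxygen, 0 to 1 for BALBc oxygen, 0 to 1 for their difference, 6 to 8 for strain in normoxia and 6 to 7 in hyperoxia. With no filter, 5 members were called in hyperoxia, without Cyp3a16 (adjusted p = 0.170) and Cyp3a59 (adjusted p = 0.0905).

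Uncalled oxygen differences changed sign as follows, and the cause was not tested. A term for library class gave, in C57, -0.028 for Cyp3a11, -0.018 for Cyp3a41a and -0.026 for Cyp3a59, and 0.17 for the difference of responses of Cyp3a41a. The 7 libraries gave, in C57, -0.10 for Cyp3a11, 0.0034 for Cyp3a25, -0.14 for Cyp3a41a and -0.11 for Cyp3a41b, -0.47 for Cyp3a41a in BALBc and 0.0071 for the difference of responses of Cyp3a13. Quantile scaling gave 0.065 for Cyp3a25 and 0.032 for Cyp3a44 in C57 and 0.011 for Nr1i2 in BALBc. Leaving out 1 library gave, in C57, -0.18 to 0.012 for Cyp3a13, -0.13 to 0.012 for Cyp3a25, -0.23 to 0.58 for Cyp3a41b and -0.11 to 0.021 for Cyp3a44. It gave -0.35 to 0.41 for Cyp3a41a in BALBc, and for the difference of responses -0.73 to 0.033 for Cyp3a41a and -0.20 to 0.0050 for Cyp3a44.

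Over all genes, the 122 calls for C57 oxygen became 47 with no filter, 74 with no variance trend, 79 with the replicate block, 67 with Xist, 14 with a class term, 20 from the compared groups alone and 0 within the 7 libraries. The 123 for BALBc oxygen became 27 with no filter, and 19 and 0 within the 8 and 7 libraries. The 107 for the difference became 13 with no filter, 67 with the block, 28 with the class term and 0 within the 7. Strain calls fell from 3910 to 2242 from the compared groups and 2206 and 1109 within the 8 and 7 libraries in normoxia, and from 3025 to 1935 with the class term and 1262 within the 7 in hyperoxia. Leaving out 1 library gave 36 to 237 for C57 oxygen, 23 to 158 for BALBc oxygen and 40 to 163 for their difference. The counts within the 7 libraries rest on the spread of C57 hyperoxia alone.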
